A study of Mus musculus with 12 samples.

Results

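The tRNAs described here are the mouse leucine tRNAs that read the leucine codons beginning with TT: tRNA-Leu-CAA (anticodon CAA) and tRNA-Leu-TAA (anticodon TAA). They were taken by name, as every entry of the deposited tables that starts tRNA-Leu-CAA- or tRNA-Leu-TAA-. This gave 7 entries with 559 of 28302 rows. All 7 carried values of their own, out of 213 distinct tRNAs in the tables. The RNA came from hematopoietic stem and progenitor cells, which give rise to all blood lineages, of wild-type mice labelled old or young; the labels give no age in months. Small RNA was demethylated with wild-type AlkB and its D135S mutant, and then incubated in BEU buffer with CMC, a carbodiimide that stays on pseudouridine and halts reverse transcriptase, or in BEU buffer without it. There were 3 libraries in each of 4 groups: old with CMC, old with BEU alone, young with CMC and young with BEU alone. All 12 libraries share the demethylation step and the wild-type genotype. The tables hold tRNA only, so no marker gene could be read to check the labelled cell type. The study compared tRNA pseudouridylation between the ages, and its title names pseudouridine synthase 10 (PUS10).

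Pseudouridine is an isomer of uridine that pseudouridine synthases make within an RNA chain. TRUB1 and PUS10 are known to modify the T loop (positions 55 and, for PUS10, also 54), PUS3 the anticodon arm at positions 38 and 39, and PUS1 positions 27 and 28. Leucine and serine tRNAs have a long variable arm between the anticodon stem and the T stem, and genes of tRNA-Leu-CAA are known to carry an intron that is spliced out of the mature tRNA. A stop rate, used throughout, is the share, in percent, of the reads over a base that end at it. A rise is the CMC rate minus the BEU rate of libraries with the same age and number, in percentage points.

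The 6 complete entries follow as the tables give them, 5′ to 3′ in DNA letters, with capitals on the T bases called as CMC-dependent in old cells, young cells or both. They are shown so that the called bases can be compared between entries that share most of their sequence. A T in lower case was either not called or below the coverage minimum, as were positions 38 and 39 of Leu-CAA-1-1 and Leu-CAA-4-1.
tRNA-Leu-CAA-1-1: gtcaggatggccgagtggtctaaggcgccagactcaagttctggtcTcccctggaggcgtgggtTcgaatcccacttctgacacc
tRNA-Leu-CAA-2-1: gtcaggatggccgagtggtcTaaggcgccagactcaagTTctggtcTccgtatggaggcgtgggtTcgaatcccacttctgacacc
tRNA-Leu-CAA-3-1: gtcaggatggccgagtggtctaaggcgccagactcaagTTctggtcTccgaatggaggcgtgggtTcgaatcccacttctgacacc
tRNA-Leu-CAA-4-1: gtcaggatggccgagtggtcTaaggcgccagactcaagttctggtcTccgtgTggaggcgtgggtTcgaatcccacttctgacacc
tRNA-Leu-TAA-1-1: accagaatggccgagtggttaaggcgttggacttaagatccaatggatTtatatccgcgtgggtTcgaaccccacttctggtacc
tRNA-Leu-TAA-2-1: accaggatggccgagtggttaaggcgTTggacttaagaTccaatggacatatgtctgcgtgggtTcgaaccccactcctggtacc

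The 4 Leu-CAA entries were identical over the first 49 bases and the last 34, and differed only in the variable arm. Leu-CAA-2-1, 3-1 and 4-1 (86 bases each) differed among themselves at bases 51 and 52 alone, whereas Leu-CAA-1-1 had 85 bases and was 96.5% identical to each of them. Leu-TAA-1-1 and Leu-TAA-2-1 (85 bases each) were 92.9% identical to each other and 71.6% to 74.4% identical to the Leu-CAA entries. Leu-TAA-3-1 had only 40 rows, covering bases 20 to 40 and 57 to 75. In the usual tRNA numbering, base 39 of a Leu-CAA entry is position 38, base 40 is position 39, and the last T in capitals of each sequence is position 55. In the Leu-TAA entries positions 27, 28 and 39 are the bases with those numbers. Bases of the D loop and variable arm are named by counting from the 5′ end.

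RefSeq (GRCm38.p6, the assembly of the mm10 build) lists 4 genes with the CAA anticodon and 3 with the TAA anticodon. Those for CAA are n-TLcaa1 at chr13:21200204-21200308, n-TLcaa2 at chr13:21914838-21914943, n-TLcaa3 at chr11:58302474-58302580 and n-TLcaa4 at chr13:21172837-21172942. Those for TAA are n-TLtaa2 at chr13:21848022-21848104, n-TLtaa3 at chr10:12922571-12922653 and n-TLtaa4 at chr19:12011086-12011168. The CAA genes span 105 to 107 bp and the TAA genes 83 bp, whereas the entries without their last 2 bases are 83 or 84 bases long. No entry name matched a RefSeq name, so which gene gave which entry is not stated here.

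Coverage set which bases could be tested. Added up over the 7 members, their highest coverage came to 6735 to 36866 reads in CMC libraries and 17469 to 38207 in BEU libraries. Coverage in the tables never exceeded 8015 reads, and 3′ of a base that reaches this ceiling hardly any stops were listed. In Leu-CAA-2-1 the highest coverage was 3246, 1827 and 5811 reads in old CMC libraries, 7971, 4923 and 4235 in old BEU libraries, 3243, 7988 and 1502 in young CMC libraries and 7894, 6415 and 7984 in young BEU libraries. Old BEU library 1, young CMC library 2 and young BEU library 3 passed 7500 reads, taken here as the ceiling, at or before position 55 of all 4 Leu-CAA entries. Young BEU library 1 passed it only 3′ of position 55, in Leu-CAA-1-1, 2-1 and 3-1. Leu-TAA-2-1 never reached it, with 427 to 1076 reads in old CMC libraries, 1077 to 4293 in old BEU, 544 to 3599 in young CMC and 1882 to 4568 in young BEU. At the first base of Leu-CAA-2-1, coverage had dropped to 38, 40 and 86 reads in old CMC libraries and 1014, 283 and 222 in old BEU libraries, and to 92, 192 and 31 in young CMC libraries and 440, 406 and 793 in young BEU libraries. Leu-TAA-3-1 had at most 124 reads in any library and 4 to 23 in CMC libraries, so no base of it reached the minimum of 20 reads in all 12 libraries.

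**Figure D1:**
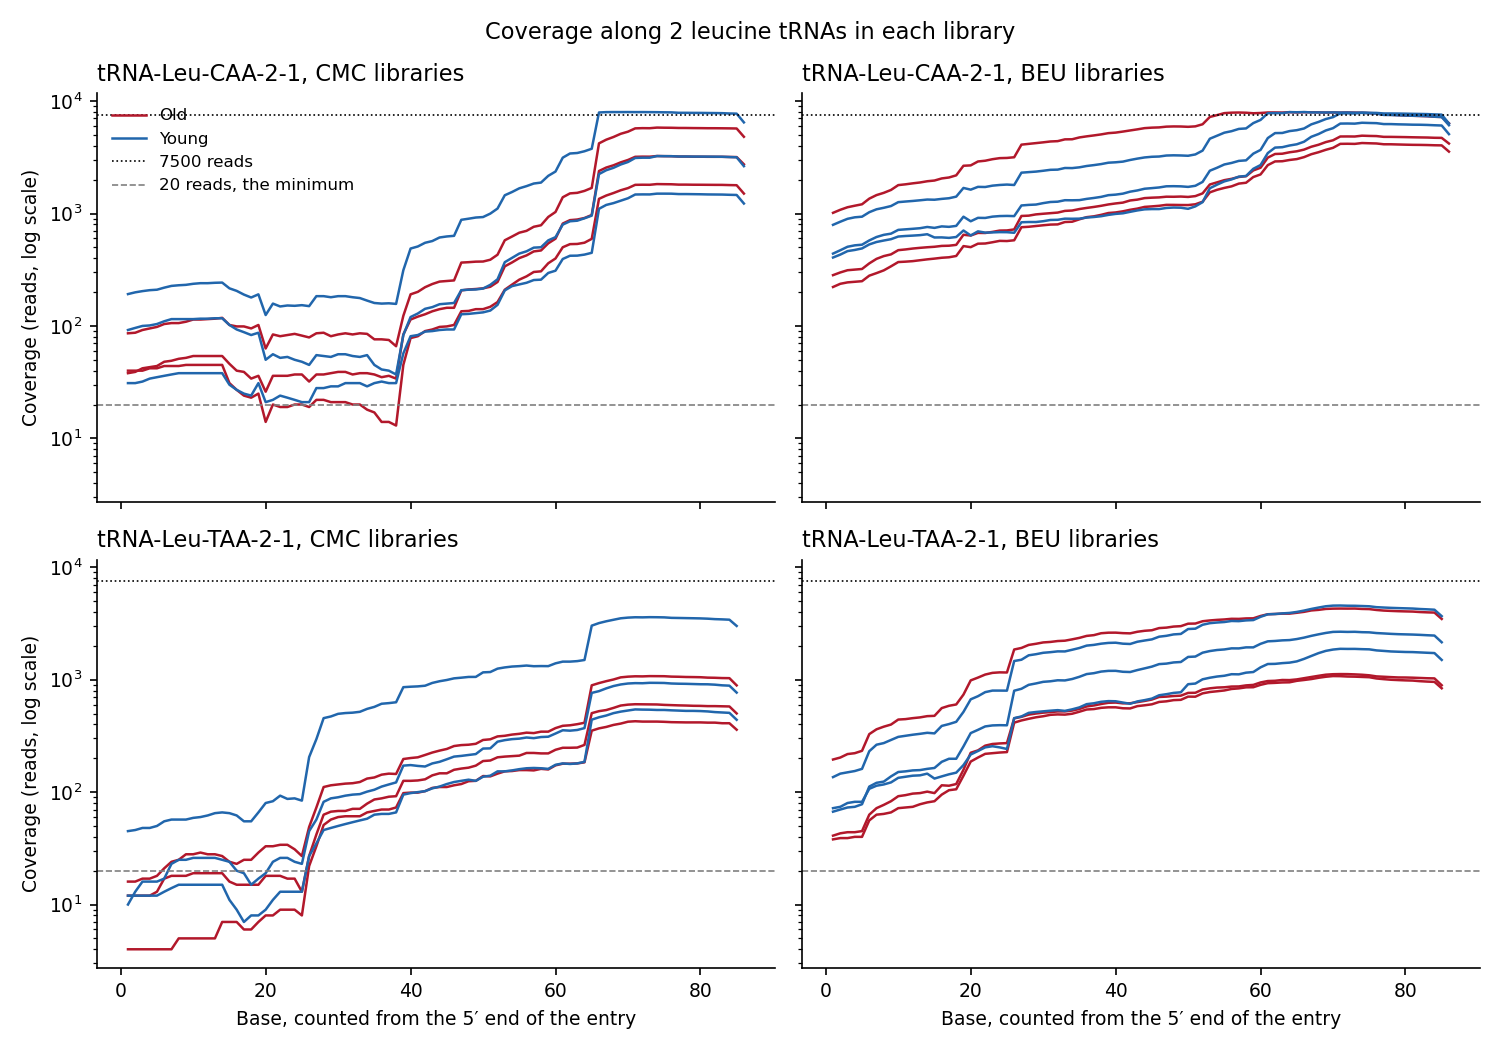
Coverage (reads, log scale) along tRNA-Leu-CAA-2-1 and tRNA-Leu-TAA-2-1, counted from the 5′ end, 1 line per library, with CMC libraries on the left and BEU libraries on the right. Coverage near the 5′ end is far below its highest value. It does not fall steadily, as every CMC library of Leu-CAA-2-1 has more reads at the first base than at base 21. At the first base of Leu-TAA-2-1 coverage is below the minimum of 20 reads (dashed) in 5 of the 6 CMC libraries. The dotted line marks 7500 reads.

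Reads could not always be told apart between members. Over bases 1 to 48, which the Leu-CAA entries share, the number of stop reads was identical between Leu-CAA-2-1 and Leu-CAA-3-1 in 45.8% of 576 base-by-library values, and the median ratio of coverage (3-1 over 2-1) was 0.995. Leu-CAA-1-1 had identical stop counts with the other Leu-CAA entries in 25.5% to 33.3% of these values. At its first base it had 38, 40 and 85 reads in old CMC libraries, against 38, 40 and 86 in Leu-CAA-2-1. In old BEU libraries it had 545, 182 and 143 there, against 1014, 283 and 222. Values of the 4 Leu-CAA entries at the same base are therefore not independent observations. Nothing in the labels states that the replicates are different animals; the p-values thus reflect only how these libraries vary, and that variation may be technical. A base was called when the Benjamini-Hochberg adjusted p of edgeR's quasi-likelihood test was under 0.05, the mean rise was at least 10 points and all 3 pairs rose.

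CMC raised stops at the same few T bases in old and in young cells. Of 94 T bases tested in 6 members, 21 were called in old cells (22.3%) and 18 in young cells (19.1%), against a background over all tRNAs of 20.2% of 2189 T bases in old cells and 18.8% in young cells. The members' shares were thus close to those of all tRNAs. All 18 calls in young cells were also called in old cells. The Leu-CAA entries held 15 calls in old cells and 13 in young cells of 65 tested, and the Leu-TAA entries 6 in old cells and 5 in young cells of 29 tested. Another 35 T bases, 22 of them in Leu-TAA entries, were below the coverage minimum. At the 73 T bases without a call the rise ranged from -8.33 to 9.51 points in old cells, with a median of 0.55, and from -7.28 to 8.27 points in young cells, with a median of 0.0711. Of these, 19 in old cells and 11 in young cells had an adjusted p under 0.05 (edgeR), counting rises and falls together. None of them rose by 10 points or more.

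**Figure D2:**
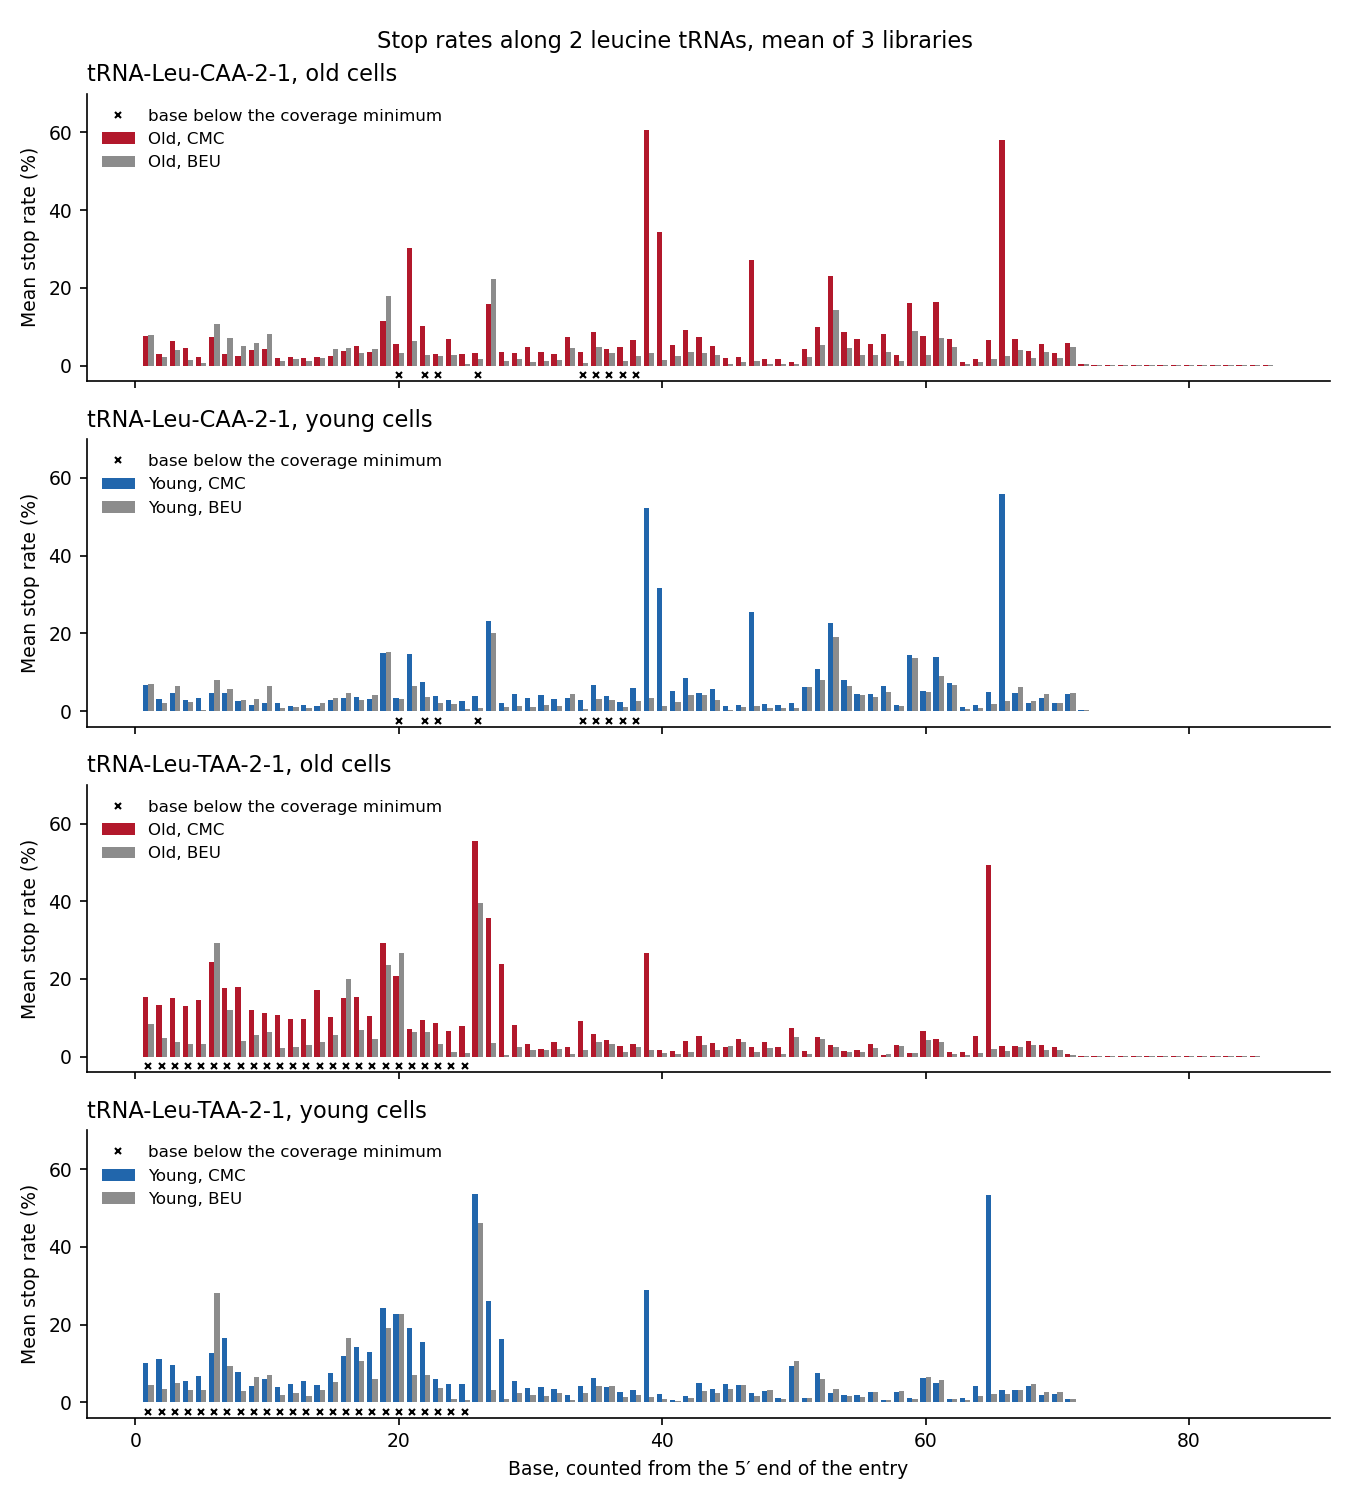
Mean stop rate (%, 3 libraries) at each base of tRNA-Leu-CAA-2-1 and tRNA-Leu-TAA-2-1, counted from the 5′ end, with CMC in colour and BEU in grey; crosses mark bases below the coverage minimum. Leu-CAA-2-1 shows CMC stops at bases 21, 39, 40, 47 and 66, and Leu-TAA-2-1 at bases 27, 28, 39 and 65, while base 26 of Leu-TAA-2-1 also stops with BEU alone.

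Position 55 of the T loop, the site of TRUB1 and PUS10, was called at both ages in each of the 6 tested members. In Leu-CAA-2-1 the stop rate was 59.2%, 55.6% and 59.5% with CMC in old cells, against 0.641%, 3.08% and 3.85% with BEU. The young-cell rates were 57.0%, 51.8% and 59.1% with CMC, against 3.02%, 4.60% and 0.351% with BEU. All CMC libraries lay above all BEU libraries, and old and young CMC libraries overlapped. The rise was 55.6 ± 3.003 points in old cells (SD, n = 3; edgeR adjusted p = 0.000327) and 53.3 ± 5.83 in young cells (SD, n = 3; edgeR adjusted p = 0.000405). The BEU libraries with over 7500 reads at this base, old library 1 and young library 3, gave the lowest BEU rates, 0.641% at 7963 reads and 0.351% at 7984 reads. In Leu-TAA-2-1, which stayed below the ceiling, the rates were 47.6%, 47.4% and 53.3% with CMC in old cells, against 1.70%, 1.29% and 2.97% with BEU. In young cells they were 51.6%, 50.3% and 58.1% with CMC, against 2.17%, 2.47% and 1.87% with BEU. Its rise, measured away from the ceiling, was 47.5 ± 2.49 points in old cells (edgeR adjusted p = 1.15e-07) and 51.1 ± 4.43 in young cells (edgeR adjusted p = 1.16e-07; SD, n = 3 each). The other 4 tested members rose by 50.0 to 59.5 points in old cells and by 46.8 to 59.1 in young cells. Over all 154 tested T bases at this position the median rise was 40.1 points in old cells and 34.6 in young cells, and 132 and 124 of them were called in old and young cells. The members' medians were 53.1 points in old cells and 52.2 in young cells; members and other tRNAs were not compared by a test.

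Position 54, the neighbouring T-loop base and the other known PUS10 site, was not called at either age in any of the 6 tested members. In Leu-CAA-2-1 the stop rate there was 6.08%, 7.73% and 6.22% with CMC in old cells, against 0.164%, 2.32% and 2.39% with BEU, and in young cells 5.64%, 5.04% and 4.03% with CMC, against 2.304%, 2.93% and 0.101% with BEU. In Leu-TAA-1-1 it was 7.23%, 11.9% and 13.7% with CMC in old cells, against 1.64%, 1.205% and 3.24% with BEU. In young cells of that tRNA it was 3.49%, 3.83% and 3.45% with CMC, against 2.56%, 1.72% and 2.44% with BEU. The old CMC libraries of Leu-TAA-1-1 therefore lay above its young CMC libraries, at coverage of 67 to 139 reads in old CMC and 58 to 444 reads in young CMC. Its rise was 8.92 ± 2.89 points in old cells (edgeR adjusted p = 0.000151) and 1.35 ± 0.660 in young cells (edgeR adjusted p = 0.189; SD, n = 3 each). Being under 10 points it was not called, but without old replicate 1 it averaged 10.6 points and was. At position 54 of Leu-TAA-2-1 the rise also passed the test (edgeR adjusted p = 2.3e-05 in old cells and 0.00195 in young cells) but was only 4.40 ± 1.00 points in old cells and 2.69 ± 1.21 in young cells (SD, n = 3 each). The lowest BEU rates at position 54 of Leu-CAA-2-1, 0.164% in old cells and 0.101% in young cells, came from old BEU library 1 and young BEU library 3, both over 7500 reads at that base. In the members other than Leu-TAA-1-1 the rise ranged from 3.64 to 6.08 points in old cells and from 2.26 to 3.94 in young cells. Over all 147 tested T bases at position 54, 43 were called in old cells and 37 in young cells, with median rises of 6.01 points in old cells and 4.47 in young cells. Calls were also few in leucine tRNAs with other anticodons, at 1 of 10 tested at each age. In serine tRNAs 1 of 11 was called in old cells and 0 in young cells. The members' medians were 5.11 points in old cells and 2.91 in young cells.

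**Figure D3:**
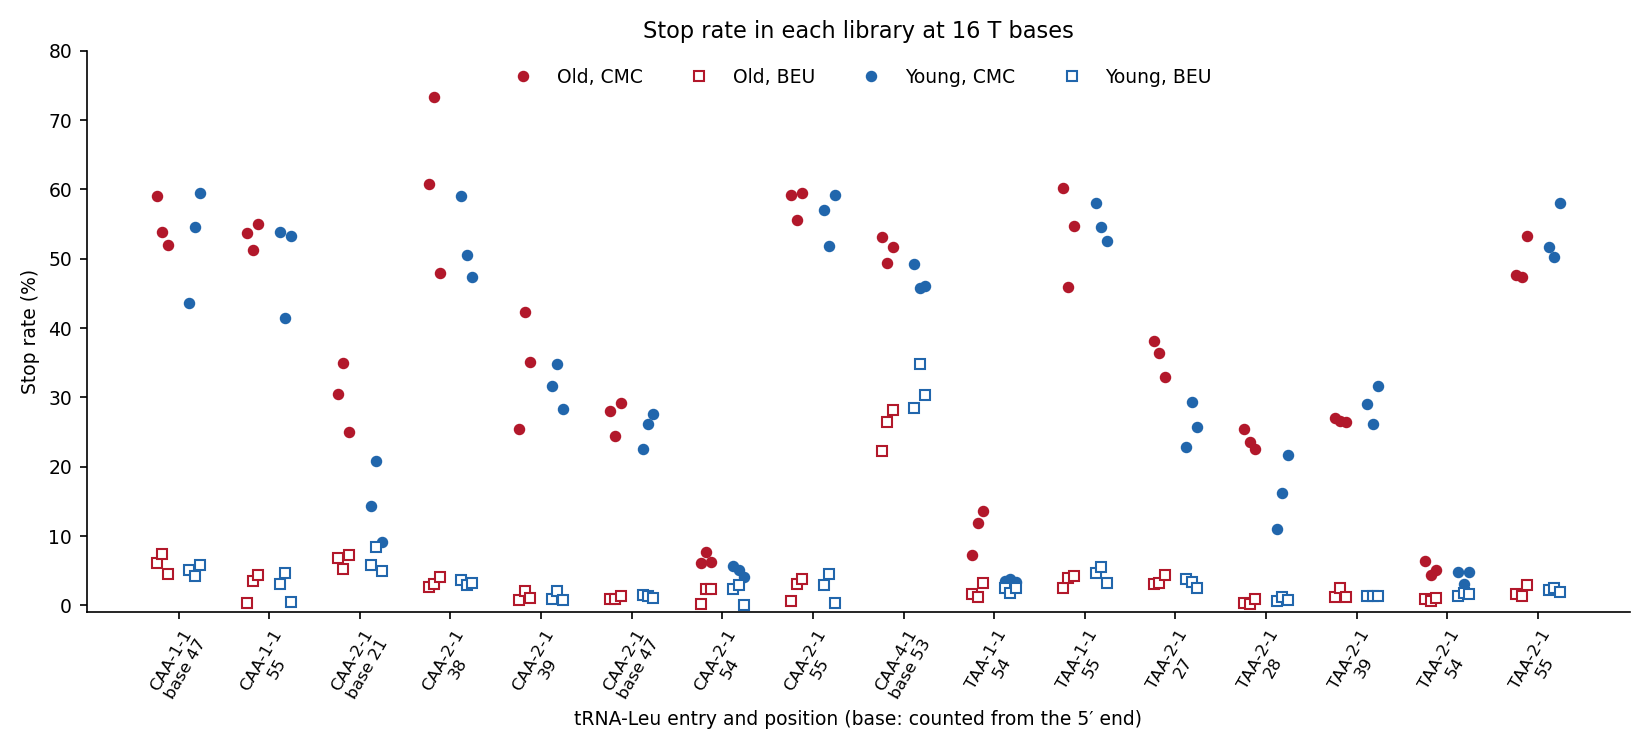
Stop rate (%) in each library at 16 T bases of 5 leucine tRNAs, with old cells (red) left of young cells (blue), filled circles for CMC and open squares for BEU. CMC libraries stand clear of BEU libraries at position 55 wherever it is shown (not for Leu-CAA-4-1), while at position 54 the CMC libraries of Leu-CAA-2-1 and Leu-TAA-2-1 stay under 8%.

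Positions 38 and 39, at the 3′ side of the anticodon loop where PUS3 acts, separated the anticodon families, because both are T in Leu-CAA and only 39 is T in Leu-TAA. Position 38 of Leu-CAA-2-1 stopped 60.7%, 73.3% and 47.97% of reads with CMC in old cells, against 2.70%, 3.16% and 4.06% with BEU. In young cells the rates were 59.0%, 50.5% and 47.4% with CMC, against 3.64%, 2.98% and 3.18% with BEU. The CMC values of the ages overlapped, with coverage of 45 to 123 reads in old CMC and 57 to 313 in young CMC libraries. The rise was 57.4 ± 13.2 points in old cells (edgeR adjusted p = 3.26e-07) and 49.0 ± 5.76 in young cells (edgeR adjusted p = 5.87e-07; SD, n = 3 each). Position 39 of the same tRNA gave 25.4%, 42.3% and 35.1% with CMC in old cells, against 0.839%, 2.12% and 1.08% with BEU. Young cells gave 31.7%, 34.8% and 28.4% with CMC, against 0.951%, 2.12% and 0.771% with BEU. The rise at 39 was 32.9 ± 7.85 points in old cells and 30.4 ± 2.57 in young cells (SD, n = 3 each; edgeR adjusted p = 2.94e-06 and 3.16e-06 in old and young cells). Leu-CAA-3-1 rose by 56.4 ± 13.5 points in old cells and 46.2 ± 4.54 in young cells at position 38, and by 33.1 ± 2.40 in old cells and 30.5 ± 3.95 in young cells at position 39 (SD, n = 3 each). Both positions of Leu-CAA-1-1 and Leu-CAA-4-1 fell below the coverage minimum, with 7 to 57 reads in CMC libraries at position 38 of 1-1 and 12 to 105 at that of 4-1. The untested stop rates at position 38 of Leu-CAA-1-1 were 30.8%, 57.1% and 51.9% with CMC in old cells, against 2.51%, 3.40% and 5.17% with BEU.

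In Leu-TAA-2-1 position 39 stopped 26.98%, 26.5% and 26.4% of reads with CMC in old cells, against 1.15%, 2.57% and 1.23% with BEU. In young cells the rates were 29.1%, 26.2% and 31.6% with CMC, against 1.34%, 1.40% and 1.36% with BEU. The 2 ages overlapped, and the rise was 24.99 ± 0.9503 points in old cells (edgeR adjusted p = 2.01e-07) and 27.6 ± 2.70 in young cells (edgeR adjusted p = 1.25e-07; SD, n = 3 each). Over all tRNAs, 19 of 20 tested T bases at position 38 were called at each age, and at position 39 the calls were 59 of 73 in old cells and 58 of 73 in young cells. Median rises over all tRNAs were 43.8 points in old cells and 40.3 in young cells at position 38, and 24.9 and 24.6 points in old and young cells at position 39.

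Positions 27 and 28, which open the anticodon stem and are known PUS1 sites, are T in Leu-TAA and C in Leu-CAA. Position 27 of Leu-TAA-2-1 stopped 38.1%, 36.4% and 32.9% of reads with CMC in old cells, against 3.08%, 3.21% and 4.38% with BEU. In libraries of young cells the rates were 22.8%, 29.4% and 25.7% with CMC, against 3.85%, 3.40% and 2.53% with BEU. The 3 old CMC libraries lay above the 3 young CMC libraries, at coverage of 33 to 73 reads in old and 35 to 296 in young. How often the CMC rates of the ages separated in this way over all tRNAs was not counted. The rise was 32.2 ± 3.36 points in old cells (edgeR adjusted p = 1.74e-07) and 22.7 ± 3.55 in young cells (edgeR adjusted p = 4.7e-07; SD, n = 3 each). At position 28 the rates were 25.4%, 23.5% and 22.5% with CMC in old cells, against 0.344%, 0.204% and 0.891% with BEU. In young cells they were 10.98%, 16.3% and 21.7% with CMC, against 0.667%, 1.18% and 0.789% with BEU. Again each old CMC library was above each young one, with a rise of 23.3 ± 1.71 points in old cells (edgeR adjusted p = 5.33e-07) and 15.4 ± 5.33 in young cells (edgeR adjusted p = 4.79e-06; SD, n = 3 each). Leu-TAA-1-1 has T at both positions too but only 6 to 92 reads at position 27 in CMC libraries. Its untested rates there were 26.3%, 20.0% and 17.4% with CMC in old cells and 35.0%, 33.7% and 33.3% with CMC in young cells, so in that tRNA the young libraries were the higher. With BEU they were 2.25% to 3.07% in old cells and 2.31% to 3.42% in young cells. Over all tRNAs, 40 of 50 tested T bases at position 27 were called in old cells and 45 in young cells, and 42 of 78 at position 28 at each age.

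The variable arm held the other group of called T bases. Base 47, within the stretch that the 4 Leu-CAA entries share, was called in all 4 at both ages. In Leu-CAA-1-1 its stop rate was 59.0%, 53.8% and 52.0% with CMC in old cells, against 6.17%, 7.41% and 4.51% with BEU. Rates in young cells were 43.6%, 54.6% and 59.5% with CMC, against 5.18%, 4.31% and 5.88% with BEU. The ages overlapped, with rises of 48.9 ± 3.47 points in old cells (edgeR adjusted p = 3.12e-07) and 47.4 ± 7.999 in young cells (edgeR adjusted p = 2.78e-07; SD, n = 3 each). In Leu-CAA-2-1 the same base gave 28.02%, 24.4% and 29.2% with CMC in old cells, against 0.878%, 0.992% and 1.42% with BEU. Young cells had 22.6%, 26.2% and 27.6% with CMC, against 1.55%, 1.43% and 1.07% with BEU. The rise in Leu-CAA-2-1 was 26.1 ± 2.35 points in old cells and 24.1 ± 2.78 in young cells (SD, n = 3 each). Leu-CAA-3-1 rose by 21.2 ± 2.48 points in old cells and 23.3 ± 3.74 in young cells, and Leu-CAA-4-1 by 17.1 ± 8.42 in old cells and 20.97 ± 5.03 in young cells (SD, n = 3 each). The lowest rise of any pair in Leu-CAA-1-1, 38.4 points, was above the highest in the other 3 entries, 27.8 points. The sequence up to base 49 is the same in all 4. The entries were not compared by a test, and reads could not always be told apart between them.

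Leu-CAA-4-1 had further calls at base 52, where it differs from Leu-CAA-2-1 and 3-1, and at the neighbouring base 53. Base 53, a T, stopped 53.1%, 49.4% and 51.7% of reads with CMC in old cells, against 22.2%, 26.4% and 28.3% with BEU. Among young cells the values were 49.2%, 45.8% and 46.1% with CMC, against 28.4%, 34.9% and 30.4% with BEU. BEU stops were thus high as well, and the rise was 25.8 ± 4.44 points in old cells (edgeR adjusted p = 5.48e-05) and 15.8 ± 4.90 in young cells (edgeR adjusted p = 0.00286; SD, n = 3 each). Without young replicate 1 the young rise was 13.3 points and was not called (edgeR adjusted p = 0.0664). The same base rose by 8.65 points in old cells and 3.38 in young cells of Leu-CAA-2-1, under the 10 points of the rule. Base 49 of Leu-TAA-1-1 passed the call rule in old cells and not in young cells, with 9.80%, 20.0% and 6.56% with CMC in old cells, against 0.855%, 1.46% and 2.31% with BEU. In young cells, rates were 4.65%, 5.38% and 10.5% with CMC, against 1.33%, 3.70% and 2.37% with BEU, and the ages overlapped. Its rise of 10.6 ± 7.29 points in old cells (SD, n = 3) was 6.60 points, and no longer called, without old replicate 2; in young cells it was 4.38 ± 3.37 points (SD, n = 3).

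Base 21, the last of the D-loop T bases in Leu-CAA, was called in old cells of Leu-CAA-2-1 and Leu-CAA-4-1. In Leu-CAA-2-1 it stopped 30.6%, 35% and 25% of reads with CMC in old cells, against 6.82%, 5.21% and 7.24% with BEU. For young cells the rates were 14.3%, 20.9% and 9.09% with CMC, against 5.79%, 8.36% and 4.98% with BEU. Each old CMC library was above each young CMC library, but coverage was low, at 36, 20 and 84 reads in old CMC and 56, 158 and 22 in young CMC. Exact (Clopper-Pearson) 95% intervals were 16.3% to 48.1%, 15.4% to 59.2% and 16.2% to 35.6% for the old CMC libraries and 6.38% to 26.2%, 14.8% to 28.1% and 1.12% to 29.2% for the young ones, so single libraries of the ages overlapped within counting error. The tables carry no molecular identifiers, so these intervals cover counting error only. The rise was 23.8 ± 6.01 points in old cells (edgeR adjusted p = 7.41e-05) and 8.38 ± 4.21 in young cells (edgeR adjusted p = 0.00642; SD, n = 3 each). The young rise failed the rule on size alone, and without young replicate 3 it was 10.5 points and called. Leu-CAA-4-1 had the same 36, 20 and 84 reads and the same rates in old CMC libraries as Leu-CAA-2-1. Leu-CAA-3-1 missed the minimum by 1 read in 1 old CMC library, with rates of 30.6%, 31.6% and 25% with CMC in old cells. Leu-CAA-1-1, also untested, had 20.0%, 23.5% and 21.2% with CMC in old cells, against 3.92%, 3.81% and 5.11% with BEU, and 8.33%, 10.6% and 6.67% with CMC in young cells, against 1.71%, 3.30% and 3.70% with BEU. In the leucine tRNAs with anticodons AAG, CAG and TAG, base 21 was tested in 7 entries and called in 7 at each age. Its rise there ranged from 15.04 to 24.3 points in old cells and from 10.2 to 23.8 in young cells, with medians of 17.6 points in old cells and 15.5 in young cells.

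A, C and G bases were called rarely. Of 277 tested in the members, 3 were called in old cells and 2 in young cells, against a background of 0.635% of 7870 in old cells and 0.356% in young cells. Base 52 of Leu-CAA-4-1, a G beside the called T, stopped 35.8%, 42.1% and 35.3% of reads with CMC in old cells, against 9.21%, 11.8% and 11.9% with BEU. The young-cell rates were 39.2%, 35.2% and 36.7% with CMC, against 15.9%, 16.6% and 15.3% with BEU. All CMC values were above all BEU values, with a rise of 26.8 ± 3.46 points in old cells (edgeR adjusted p = 8.62e-05) and 21.1 ± 2.35 in young cells (edgeR adjusted p = 0.0012; SD, n = 3 each). The young call was lost without young replicate 1 (edgeR adjusted p = 0.0579). The other calls were 2 neighbouring G bases of Leu-CAA-1-1 at positions 42 and 43 of the anticodon stem, where reverse transcription also stopped often without CMC. Position 42 gave 66.2%, 61.0% and 62.8% with CMC in old cells, against 39.01%, 49.1% and 44.7% with BEU. Young cells gave 56.5%, 52.1% and 50.0% with CMC, against 44.1%, 36.4% and 39.3% with BEU. It was called in old cells (19.04 ± 7.67 points, SD, n = 3; edgeR adjusted p = 0.0107), though not without old replicate 1 (edgeR adjusted p = 0.115) or without old replicate 3 (edgeR adjusted p = 0.0578). In young cells it missed the threshold (12.9 ± 2.52 points, SD, n = 3; edgeR adjusted p = 0.0784). Position 43 was called at both ages, with 10.0 ± 4.05 points in old cells (edgeR adjusted p = 0.0473) and 16.3 ± 6.39 in young cells (edgeR adjusted p = 0.0211; SD, n = 3 each). Its call in old cells was lost without each old replicate in turn and without young replicates 1 and 3, and its call in young cells without young replicate 1 (edgeR adjusted p = 0.309) and without young replicate 3 (edgeR adjusted p = 0.199).

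The ages were compared by the interaction of CMC with age in the log odds of a stop. The p-values therefore do not test the differences in points that are given beside them. Tested were the 20 member T bases whose rise averaged at least 10 points over the 6 pairs. None passed the edgeR quasi-likelihood test after Benjamini-Hochberg adjustment, as none of 439 did over all tRNAs (0% called). The lowest adjusted p among the members was 0.853. An unadjusted p under 0.05 was found at 2 of the 20, and at 21 of the 439. The rise was higher in old cells at 15 of the 20 (75%), against 66.1% of the 439, and the rise in old cells minus that in young cells had a median of 2.60 points in the members, against 1.39 over all. The 3 rises of old cells did not overlap the 3 of young cells at 5 of the 20, against 13.0% of all 439 bases. These 5 were bases 21 of Leu-CAA-2-1 and Leu-CAA-4-1, base 53 of Leu-CAA-4-1 and positions 27 and 28 of Leu-TAA-2-1, and each was higher in old cells.

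The highest differences, old minus young, were at base 21, with 16.1 ± 4.01 points in Leu-CAA-4-1 (SE; edgeR unadjusted p = 0.0723) and 15.4 ± 4.24 in Leu-CAA-2-1 (SE; edgeR unadjusted p = 0.113), which had the same counts in the old CMC libraries. They were followed by position 38 of Leu-CAA-3-1 (10.2 ± 8.24 points, SE, but 2.44 without old replicate 2), base 53 of Leu-CAA-4-1 (9.98 ± 3.82; edgeR unadjusted p = 0.0457) and position 27 of Leu-TAA-2-1 (9.51 ± 2.82; edgeR unadjusted p = 0.33). Position 28 of Leu-TAA-2-1 had the lowest p of the 20 (7.89 ± 3.23 points, SE; edgeR unadjusted p = 0.0187, adjusted p = 0.853). The lowest differences were -3.90 ± 5.66 points at base 47 of Leu-CAA-4-1, -3.68 ± 2.94 at position 55 of Leu-TAA-2-1, -2.60 ± 1.65 at position 39 of Leu-TAA-2-1, -2.11 ± 2.59 at base 47 of Leu-CAA-3-1 and -0.596 ± 4.75 at position 55 of Leu-TAA-1-1 (SE). Position 55 of the 4 Leu-CAA entries differed by 0.41 to 3.79 points. Position 54 was outside this comparison because its rise averaged under 10 points in every tested member.

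**Figure D4:**
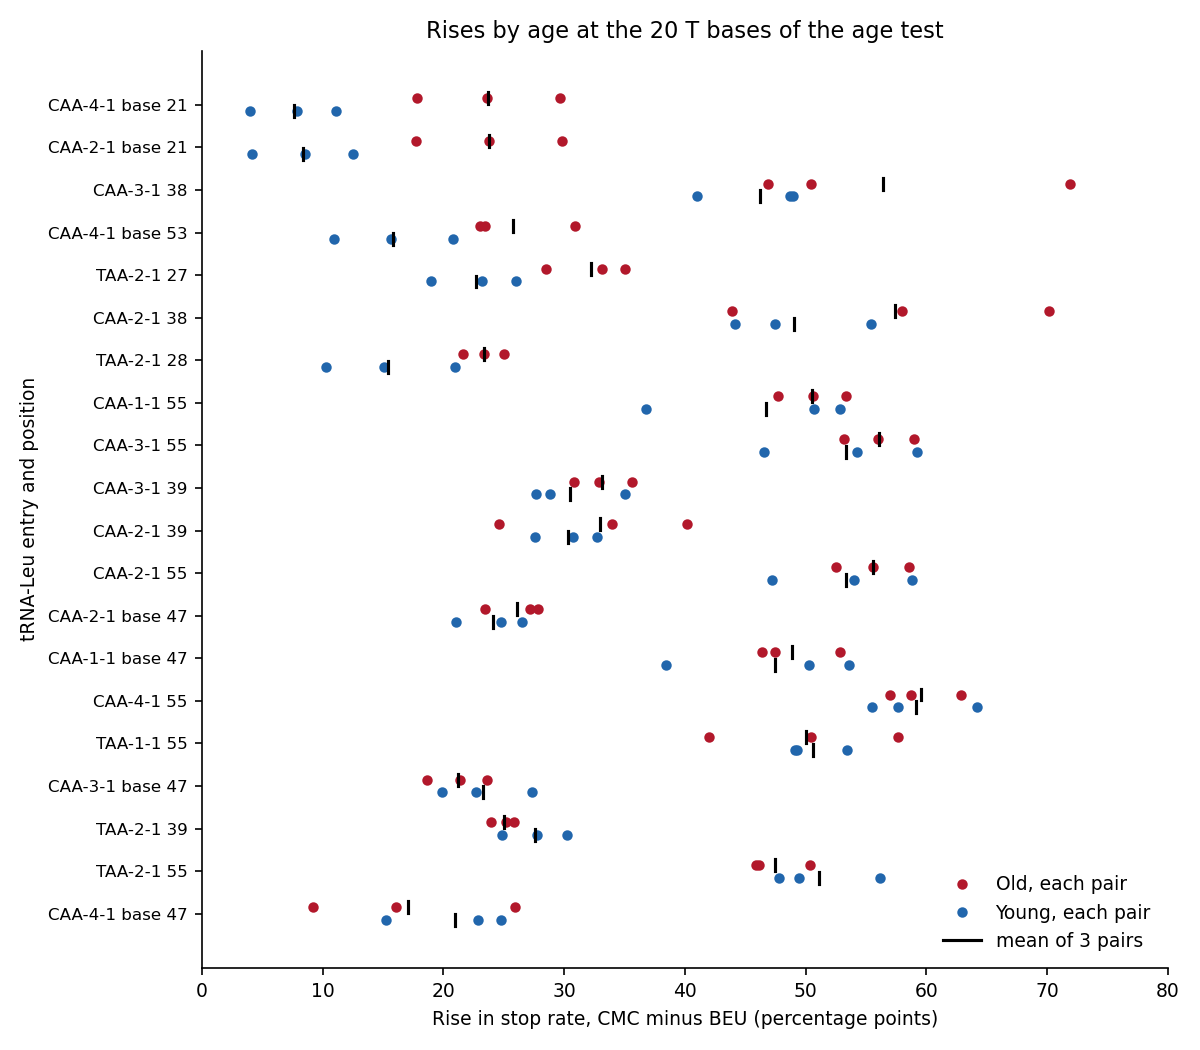
Rise in stop rate (CMC minus BEU, percentage points) in each pair of libraries at the 20 T bases of the age comparison, ordered by the difference old minus young, with old cells (red) above young cells (blue) and black ticks for the means of 3 pairs. Old and young points are apart at base 21 of Leu-CAA-2-1 and 4-1, base 53 of Leu-CAA-4-1 and positions 27 and 28 of Leu-TAA-2-1, and overlap at the other 15.

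The strongest stops without CMC differed between near-identical members, and some lay at bases that were also called with CMC. Among tested bases, the highest mean BEU rate over the 6 BEU libraries was at position 42 in Leu-CAA-1-1 (42.1%), position 26 (base 27) in Leu-CAA-2-1 (21.2%) and Leu-CAA-3-1 (19.9%), base 53 in Leu-CAA-4-1 (28.4%), position 26 in Leu-TAA-2-1 (42.8%) and position 50 (base 60) in Leu-TAA-1-1 (9.07%). Position 26 is a G that TRMT1 is known to dimethylate in many tRNAs. In Leu-TAA-2-1 it stopped 35.5%, 38.9% and 44.1% of reads with BEU in old cells and 50.1%, 44.4% and 43.5% in young cells, with overlapping values. In Leu-CAA-2-1 it stopped 21.8%, 22.7% and 22.2% with BEU in old cells and 19.5%, 19.4% and 21.6% in young cells. At position 42, where Leu-CAA-1-1 reached 39.01% to 49.1% in old cells and 36.4% to 44.1% in young cells, Leu-CAA-2-1 had 3.07%, 3.01% and 3.71% in old cells and 4.12%, 4.13% and 3.90% in young cells. This base lies in the stretch that both entries share, so the entries differed there at the same sequence. Reads could not always be told apart between them, and the part this plays in the difference was not tested.

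BEU stop rates were compared between the ages at 75 member bases with a mean BEU rate of at least 5%. None passed (edgeR, lowest adjusted p = 0.194), against 0.336% of 1190 over all tRNAs. An unadjusted p under 0.05 was found at 8 of the 75, all lower in old cells, and at 74 of the 1190 over all tRNAs. At bases whose coverage stayed below the ceiling in all 12 libraries, fitted alone, 5 of 58 member bases were called, all lower in old cells, against 5.26% of 893 over all tRNAs that were called lower in old cells. These 5 lay in the variable arm. Base 50 of Leu-CAA-1-1 had 4.51 ± 0.293% in old cells and 8.29 ± 0.675% in young cells (SD, n = 3 each; edgeR adjusted p = 0.002), and base 50 of Leu-TAA-2-1 had 5.16 ± 0.634% in old cells and 10.6 ± 2.46% in young cells (edgeR adjusted p = 0.00111). Base 52 had 5.21 ± 0.686% in old and 8.10 ± 0.409% in young cells of Leu-CAA-2-1 (edgeR adjusted p = 0.0119), 5.49 ± 0.740% in old and 7.93 ± 0.231% in young cells of Leu-CAA-3-1 (edgeR adjusted p = 0.0413), and 10.9 ± 1.502% in old and 15.9 ± 0.629% in young cells of Leu-CAA-4-1 (edgeR adjusted p = 0.0291). In the comparison over all bases their adjusted p ranged from 0.194 to 0.55. CMC stop rates, compared in the same way at 123 member bases, gave no call (edgeR, lowest adjusted p = 1), as over all tRNAs (0% of 2385). An unadjusted p under 0.05 was found at 12 of the 123, of which 11 were higher in old cells, and at 93 of the 2385 over all tRNAs.

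The abundance of the members did not pass a test between the ages. Abundance was taken as the highest coverage of a tRNA in the BEU libraries, in CPM after TMM scaling. Leu-TAA-2-1 had 3473, 2239 and 2525 in old cells and 3173, 2568 and 3698 in young cells, a log2 fold change (old over young) of -0.20 ± 0.20 (SE; edgeR adjusted p = 0.705). Leu-TAA-1-1 had 1553, 999.7 and 1001 in old cells and 1078, 916.9 and 1200 in young cells (log2 fold change 0.16 ± 0.22, SE; edgeR adjusted p = 0.762). Leu-TAA-3-1, the least covered, had 68.8, 67.8 and 112 in old cells and 92.7, 98.2 and 100 in young cells (log2 fold change -0.27 ± 0.21, SE; edgeR adjusted p = 0.697). For all 3 the ages overlapped. Their CPM also depends on library totals in which other tRNAs met the ceiling. At 7500 reads or more were 103 of the 213 tRNAs in old BEU library 1 and 98 in young BEU library 3. The other BEU libraries had 21 to 50. Without old replicate 1 the log2 fold change of Leu-TAA-2-1 was -0.40 (edgeR unadjusted p = 0.0277, adjusted p = 0.131). Without young replicate 3 it was -0.000148. The same fits gave -0.09 and 0.32 for Leu-TAA-1-1. The 4 Leu-CAA entries had log2 fold changes of 0.01 to 0.09, and their read counts are lower bounds in old BEU library 1 and young BEU library 3, and for all but Leu-CAA-4-1 also in young BEU library 1, where coverage passed 7500. None of the 7 members and none of 213 tRNAs (0%) were called by edgeR, with an unadjusted p under 0.05 at 0 of the 7 and at 12 of the 213; DESeq2 called 0 of the 7 and 1 of the 213. In the CMC libraries no tRNA was called either, but 5 of the 6 members tested had an unadjusted p under 0.05, against 34 of 208 over all tRNAs. There Leu-TAA-2-1 had a log2 fold change of -0.53 ± 0.11 (SE; edgeR unadjusted p = 0.000973, adjusted p = 0.0862), and the 4 Leu-CAA entries, with young CMC library 2 past 7500 reads, had 0.32 to 0.38 (edgeR adjusted p = 0.291 to 0.293).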

How the data were processed

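Coverage is a count of reads over each base that the authors deposited per library, with stop reads and a stop rate beside it, which is a percent equal to 100 times stop reads over coverage in the deposited tables. The 6 tables each pair the CMC and BEU libraries of 1 age and number, and all hold the same 28302 rows. Bowtie, Bowtie2 2.3.5 and mm10 appear in the submitters' processing notes with no role stated; the definition of a stop read was not given in these sources. The lowest coverage and stop count in the tables is 1, so a constant may have been added.

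Entries with identical values in all libraries were counted once. A base entered the tests with 20 or more reads in each of the 12 libraries. Stops were tested in edgeR 4.0.16 (R 4.3.3) with the quasi-likelihood fit to stop counts paired with read-through counts over all tRNAs, with no replicate block, and Benjamini-Hochberg adjustment made separately for T and for other bases. All these tests compared the log odds of a stop, whereas rises and age differences are given in points. BEU and CMC rates of the ages were compared at bases with a mean rate of at least 5%. Abundance used TMM and filterByExpr, with DESeq2 1.42.0 as an alternative. The filter removed no tRNA in the BEU libraries. In the CMC libraries it left 208, without Leu-TAA-3-1. The tests were also run on simulated data. Stops were simulated with independent noise at each base, without reads shared between entries or a loss of stops at the ceiling in single libraries. How the tests behave under these was not tested. Bases 3′ of the ceiling, taken at 7500 reads, stayed in unless stated. Errors are SDs over libraries or pairs; SEs of age differences combine both ages.

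The members, positions and rules were chosen with earlier results of these data known. Named are every member, every called base, every T at positions 54 and 55, the 5 highest and 5 lowest age differences, every base passing in BEU, and the highest BEU rate of each member. Alternatives were other coverage minimums (50, 10 and 1), 1 subtracted from the counts, limma 3.58.1 on log odds, a replicate block, adjustment over all bases, identical entries kept apart, rises of 20 or 5 points, and each library pair left out.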

Additional observations from a re-analysis of the deposited data

How the results depend on the processing

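The T bases called among the members, 21 in old cells and 18 in young cells, moved by more than 1.5 times at 2 settings in old cells only: 13 with a coverage minimum of 50 and 36 with a minimum of 1. With the minimum of 50, young cells also had 13. With 1 subtracted from the counts, 18 were called at each age. Base 49 of Leu-TAA-1-1 then rose by 8.84 points in old cells and was not called. Base 21 of Leu-CAA-2-1 and 4-1 then fell below the coverage minimum, so neither its rises nor its age difference was tested. Below the ceiling, which leaves out position 55 of the Leu-CAA entries, 17 were called in old cells and 14 in young cells. With 1 pair of libraries left out, old calls ranged from 21 to 27 and young calls from 17 to 21. Calls at A, C and G, 3 in old cells and 2 in young cells, were less stable: 0 and 0 with a minimum of 50, 20 and 4 with a minimum of 1, 1 and 1 with a rise of 20 points, in old and young cells in that order. They were 10 in old cells with a rise of 5 points and 1 in young cells with 1 subtracted from the counts. They ranged from 1 to 3 in old cells and from 0 to 2 in young cells with 1 pair left out. Replicate numbers formed the rises but were not used as a block in the main test, since same-numbered CMC and BEU libraries did not deviate together (correlations of deviations from -0.33 to 0.25 over 6 pairs). With the replicate block they were 1 in old cells and 1 in young cells, without position 42 of Leu-CAA-1-1 in old cells (edgeR adjusted p = 0.0624) and position 43 in old (0.143) and young cells (0.119), and the T calls were 21 and 18 as without it; the age, BEU, CMC and abundance comparisons gave 0 member calls with it. Below the ceiling the BEU comparison called 5 member bases in place of 0, over 893 bases tested in place of 1190. No setting run called a member in the age comparison, the CMC comparison or the abundance comparison. With 1 pair left out, the age difference at position 55 of Leu-TAA-1-1 ranged from -4.42 to 3.43 points and changed sign without old replicate 2 (3.43) and without young replicate 1 (0.823), and that at base 47 of Leu-CAA-4-1 ranged from -8.33 to 0.048 points and changed sign without old replicate 3. Causes were not tested. The coverage minimum limits Leu-TAA more than Leu-CAA. It left 102 of 210 Leu-TAA bases and 269 of 343 Leu-CAA bases to test, with 77 of 86 in Leu-CAA-2-1. The ceiling limits Leu-CAA 3′ of the variable arm.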

Other observations

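Position 34 of Leu-TAA-2-1, the first anticodon base and a T, was singled out after its values were seen. It stopped 12.7%, 9.09% and 6.06% of reads with CMC in old cells, against 1.79%, 1.88% and 1.81% with BEU. Young cells gave 4.95%, 4.18% and 3.45% with CMC, against 2.37%, 2.75% and 2.38% with BEU. The rise was 7.44 ± 3.31 points in old cells and 1.69 ± 0.793 in young cells (SD, n = 3 each), the groups did not overlap, and coverage in CMC libraries was 66 to 132 reads in old cells and 58 to 550 in young cells. Both rises were under the 10 points of the call rule, and the age difference was not in the tested set. Within that set, the rises of old and young cells did not overlap at 13.0% of 439 T bases.

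In Leu-TAA-3-1, below the coverage minimum throughout, position 55 stopped 14.3%, 33.3% and 9.09% of reads with CMC in old cells, against 2.63%, 5.26% and 5.00% with BEU, on 3 to 11 reads with CMC. Young cells gave 11.1%, 12.5% and 25% with CMC, against 2.94%, 2.33% and 1.89% with BEU, on 4 to 16 reads with CMC. At these depths no comparison with the other Leu-TAA entries was made.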
